A study of Caenorhabditis elegans with 8 samples.

Results

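The furrow collagens are the 6 cuticle collagens DPY-2, DPY-3, DPY-7, DPY-8, DPY-9 and DPY-10 of *Caenorhabditis elegans*. The genes were taken by symbol from the platform's probe annotation, and 5 of the 6 were found, dpy-2, dpy-3, dpy-7, dpy-8 and dpy-9, each with a single probe set. Those 5 are 5 of 25478 genes and 5 of 26192 annotated probe sets that were tested. dpy-10 was not found under that rule and was not analysed here. Total RNA came from 4 samples of wildtype (N2) worms and 4 of mir-71(n4115) worms, in which the gene of the microRNA mir-71 is mutated. Both groups were synchronised by bleaching, fed *Escherichia coli* OP50, given no treatment and collected on day 1 of adulthood. Each sample was read on a 1-colour Affymetrix array, and all values below are log2 signals, so that a difference of 1 is a doubling. The samples carry replicate numbers 1 to 4, and no label says that they were separate cultures. The p-values therefore reflect the spread from sample to sample, which may be technical.

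The worm cuticle is a collagen matrix that the epidermis secretes anew at each moult. Its surface is ringed by narrow grooves, the annular furrows, and the furrow collagens are the proteins needed to form them. Loss of any of these collagens removes the furrows and makes the animal short and fat, the Dumpy phenotype from which the genes are named. Loss of furrows is also known to switch on osmotic, antimicrobial and detoxification genes in the epidermis and other tissues. The genes are transcribed in pulses during the larval moulting cycles and in the late embryo, and adult worms no longer moult. The promoter of dpy-7 is widely used to drive transgenes in the epidermis, and the DPY-7 protein is a standard marker of furrows.

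None of the 5 measured furrow collagens passed the test over the whole table, against 1.95% of all probe sets, 0.645% that rose and 1.31% that fell (limma, Benjamini-Hochberg adjustment over 26192 probe sets, threshold 0.05). dpy-2 came nearest, 1.67-fold higher in the mutants with adjusted p = 0.0509, and dpy-3 followed at 1.50-fold. The other members, dpy-7, dpy-8 and dpy-9, differed by at most 0.15 on the log2 scale. All 5 estimates were above 0, with a median log2 difference of 0.15, where the median over all genes was 0.02 and 13209 of 25478 genes were higher. Because fewer epidermal cells and less RNA per cell lower a whole-worm signal alike, these cannot be told apart in any of the values below.

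One array stands apart, wild-type replicate 4. Its correlation across probe sets was 0.961 to 0.976 with wild-type replicates 1 to 3 and 0.986 to 0.993 with the mutants. That array was kept in the wild type, where the labels place it, and results are given with and without it. Leaving it out raised the share of called probe sets from 1.95% to 37.1%, and for 87.6% of those calls its own value was nearer to the mutant mean than to the other wild types. No annotated probe set read mir-71 itself, so the mutation could not be checked here.

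dpy-2 encodes a furrow collagen. Its wild-type signals were 4.70, 4.96, 5.24 and 5.27 in replicates 1 to 4. Its mutant signals were 5.66, 5.67, 6.001 and 5.78 in replicates 1 to 4. All 4 mutant arrays lay above all 4 wild-type arrays, as they did for 6.06% of probe sets, and wild-type replicate 4 lay 0.04 above wild-type replicate 3 and below every mutant. The wild-type mean was 5.04 ± 0.27 and the mutant mean 5.78 ± 0.16 (SD, n = 4). The log2 difference was 0.74 ± 0.16 (SE), with a 95% interval of 0.38 to 1.09 (limma, unadjusted p = 0.00106, adjusted p = 0.0509). The adjusted p was just over the threshold, and it moved to the other side with quantile normalisation (0.0485), with array medians subtracted (0.0489) and with the dimmest 40% of probe sets left out (0.0477). It also passed with each array's trend on gene length removed (0.0425). In those 4 settings 0.691%, 0.84%, 1.13% and 0.62% of probe sets rose. No furrow collagen was called with the replicate number as a block, with a trended and robust variance, or without any single array other than wild-type replicate 4. The shares called in either direction were 1.45% and 1.49% in the first of these fits, 0.279%, 0.195% and 0.767% without wild-type replicates 1 to 3, and 0.451%, 0.313%, 0.439% and 0.611% without mutant replicates 1 to 4. Without wild-type replicate 4 the difference was 0.81 (adjusted p = 0.00342).

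dpy-3 encodes a furrow collagen on the X chromosome. Its wild-type signals were 4.13, 4.33, 4.35 and 4.84 in replicates 1 to 4. Its mutant signals were 5.17, 5.14, 4.88 and 4.81. The groups overlapped by a single array, since wild-type replicate 4 read 4.84 and the lowest mutant 4.81, while wild-type replicates 1 to 3 lay below all mutants. With 4 arrays per group the log2 difference was 0.59 ± 0.17 (SE; limma, adjusted p = 0.101), with a 95% interval of 0.20 to 0.97. Without wild-type replicate 4, dpy-3 rose by 0.73 (adjusted p = 0.00289), and dpy-2 and dpy-3 were then the called members, 2 of 5, in a fit that called 19.3% of all probe sets higher in the mutants and 17.8% lower. The same 2 were called when the length trend was removed as well, where 16.5% of probe sets rose.

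**Figure D1:**
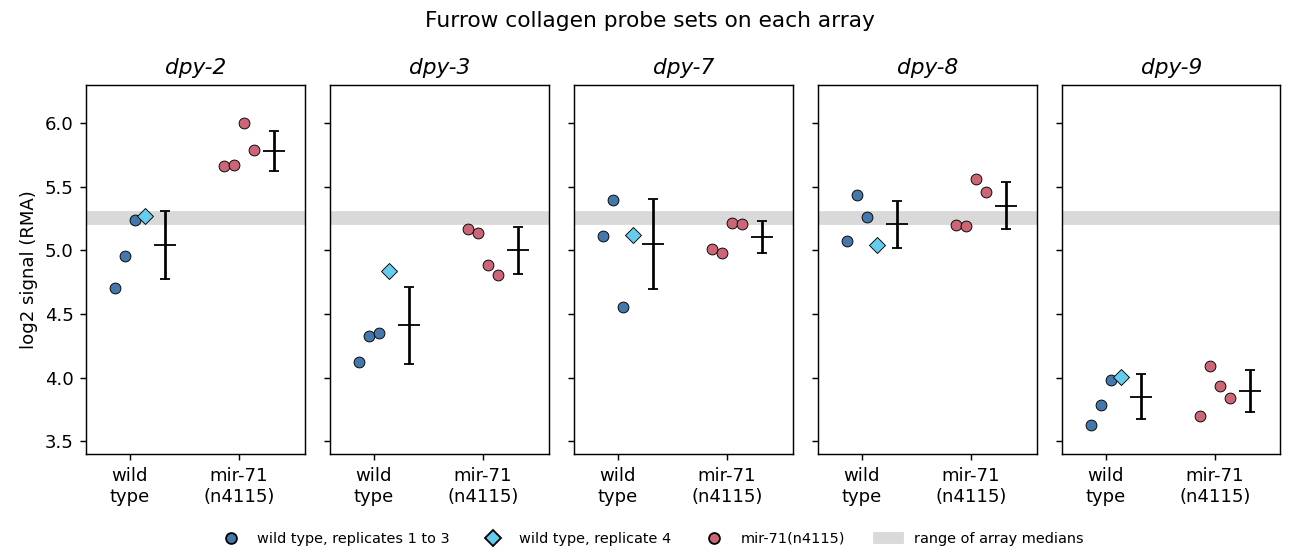
Log2 signal of each furrow collagen on each array (vertical axis), with wild-type arrays at the left of each panel and mir-71(n4115) arrays at the right. The diamond is wild-type replicate 4, the bars are the mean ± SD of 4 arrays and the grey band is the range of the array medians, 5.20 to 5.30. For dpy-2 all mutants lie above all wild types, for dpy-3 the lowest mutant (4.81) lies just under the highest wild type (4.84), and for dpy-7, dpy-8 and dpy-9 the groups overlap.

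dpy-7, the furrow collagen most used as an epidermal marker, gave wild-type signals of 5.11, 5.39, 4.55 and 5.12 in replicates 1 to 4. The mutants read 5.01, 4.98, 5.22 and 5.20. The mutants lay inside the wild-type range, and wild-type replicate 3 was the lowest of the 8 arrays. The log2 difference was 0.06 ± 0.18 (SE; limma, adjusted p = 0.855), with a 95% interval of -0.35 to 0.46, and it was -0.11 without wild-type replicate 3.

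dpy-8 encodes another furrow collagen of the X chromosome. It read 5.07, 5.44, 5.27 and 5.04 in the wild types and 5.20, 5.19, 5.56 and 5.46 in the mutants. The groups overlapped, with mutant replicate 3 highest and wild-type replicate 4 lowest. The log2 difference was 0.15 ± 0.14 (SE; limma, adjusted p = 0.517), with a 95% interval of -0.17 to 0.47.

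dpy-9, the furrow collagen gene on chromosome IV, was the dimmest probe set of the family. It read 3.63, 3.79, 3.98 and 4.01 in the wild types and 3.70, 4.09, 3.93 and 3.84 in the mutants. Neither group stood to one side of the other. The log2 difference was 0.04 ± 0.14 (SE; limma, adjusted p = 0.863), with a 95% interval of -0.27 to 0.35, and it was -0.03 without wild-type replicate 1 or without mutant replicate 2.

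The 95% intervals show how precisely these differences of signal were estimated. For dpy-7, dpy-8 and dpy-9 the upper ends corresponded to rises of 1.38-fold, 1.38-fold and 1.27-fold and the lower ends to mutant-to-wild-type ratios of 0.787, 0.888 and 0.832. With wild-type replicate 4 left out, their log2 intervals were -0.35 to 0.51, -0.23 to 0.41 and -0.21 to 0.40. These bounds are not adjusted for the number of probe sets and are not limits of detection. With 4 arrays per group, estimates of 1.67-fold for dpy-2 and 1.50-fold for dpy-3 did not pass the adjusted threshold. Whether the difference of dpy-2 or dpy-3 is itself larger than that of dpy-7, dpy-8 or dpy-9 was not tested.

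**Figure D2:**
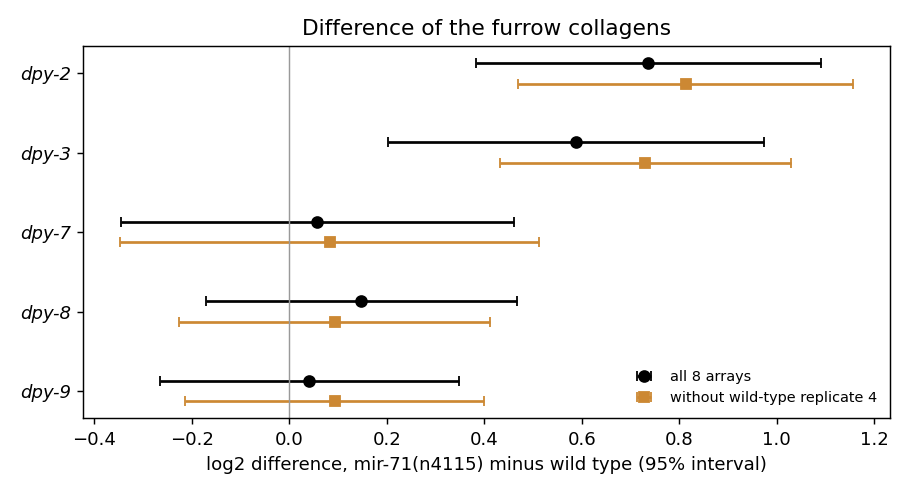
Log2 difference of each furrow collagen, mir-71(n4115) minus wild type (horizontal axis), with 95% intervals from the limma fit. Circles use all 8 arrays and squares leave out wild-type replicate 4. The intervals of dpy-2 (0.38 to 1.09) and dpy-3 (0.20 to 0.97) lie above 0, and those of dpy-7, dpy-8 and dpy-9 include 0 in both fits.

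The signals lay near or below the middle of these arrays in the wild type. The wild-type means ran from 3.85 for dpy-9 and 4.41 for dpy-3 to 5.04 for dpy-2, 5.05 for dpy-7 and 5.20 for dpy-8, where the array medians over all tested probe sets were 5.20 to 5.30. In the mutants dpy-2 (5.78) and dpy-8 (5.35) lay above that band and the other members below it. Detection above background could not be judged, because scanner values were not used here, and a probe set's signal does not give the abundance of its gene relative to another's. Background signal compresses differences of dim probe sets, so the folds given may be understated.

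The profiles of the members over the arrays lay at differing distances from each other. With each gene's own mean subtracted, the root mean square difference between dpy-2 and dpy-3 was 0.24 on the log2 scale over 8 arrays. It was 0.23 between dpy-8 and dpy-9 and 0.24 between dpy-7 and dpy-8. The widest gap was between dpy-2 and dpy-7, at 0.47. dpy-2 and dpy-3 thus lay as close to each other as did those pairs, and each lay 0.33 to 0.47 from dpy-7, dpy-8 and dpy-9. These distances share the same 8 arrays and are descriptions, with no test. Whether the members follow a common pattern was not tested. Averaged over the 5 members, the deviation from wild-type replicates 1 to 3 was 0.19 in wild-type replicate 4 and 0.29, 0.35, 0.46 and 0.36 in mutant replicates 1 to 4. The medians over the members were 0.21 in wild-type replicate 4 and -0.008, 0.29, 0.30 and 0.20 in mutant replicates 1 to 4. On every mutant array dpy-2 (0.70 to 1.04) and dpy-3 (0.54 to 0.90) deviated most, so the averages do not describe each member.

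Wild-type replicate 4 did not treat the members alike. It lay 0.57 above the mean of wild-type replicates 1 to 3 for dpy-3 and 0.31 above it for dpy-2. It was 0.21 above for dpy-9, 0.10 above for dpy-7 and 0.22 below for dpy-8. For dpy-2 and for dpy-3 it lay below the mutant mean.

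The genes with profiles nearest to the family mean were rab-21, a Rab GTPase of membrane traffic (root mean square difference 0.015, log2, 8 arrays), T05A6.9 (0.042), eif-3.K, a subunit of a translation initiation factor (0.049), kin-3, the catalytic subunit of casein kinase II (0.051), and tbx-9, a T-box transcription factor (0.052). Nearest to dpy-2 were F46F3.9 (0.097) and R12B2.9 (0.10). Nearest to dpy-3 were F26A10.8 (0.075) and F38B6.21 (0.079). The profiles of dpy-7 (flp-23, 0.086; M01G4.4, 0.095), dpy-8 (C40H1.11, 0.069; F16F9.7, 0.077) and dpy-9 (F18E3.10, 0.041; C24A3.11, 0.054) were matched about as closely. All these genes were picked as the closest of 25478, and whether such closeness exceeds chance was not tested. Several were dim, such as F16F9.7 (2.10 to 2.73) and F18E3.10 (2.24 to 2.66), while rab-21 read 10.03 to 10.60.

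In the RefSeq annotation of assembly WBcel235, dpy-2 and dpy-10 lie close together on chromosome II, dpy-3, dpy-7 and dpy-8 on the X chromosome and dpy-9 on chromosome IV. That annotation served only to say which genes are neighbours, because the build behind the array's probes is not known here. Of 11 protein-coding neighbours measured on either side of the 6 genes, 1 was called with all 8 arrays, against 1.95% of all probe sets. These neighbours were chosen after the values of the furrow collagens were seen. The called one, T14B4.19, lies between dpy-10 and dpy-2, and its annotated span overlaps dpy-10. The positions of its probes are not known here. Whether they also read dpy-10 RNA was not tested, and its values are not taken as values of dpy-10.

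T14B4.19 read 6.13, 6.15, 5.94 and 6.47 in wild-type replicates 1 to 4 and 7.06, 6.78, 6.92 and 6.99 in the mutants. All mutants lay above all wild types, with wild-type replicate 4 the nearest of these to the mutants. It rose 1.70-fold, or by 0.76 ± 0.14 on the log2 scale (SE; limma, adjusted p = 0.0316), and by 0.86 without wild-type replicate 4 (adjusted p = 0.000722). The call ended with a trended and robust variance (adjusted p = 0.0561), with the replicate number as a block (adjusted p = 0.0552) and without any single one of the other 7 arrays (adjusted p up to 0.106).

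T14B4.5, on the other side of dpy-2, read 8.14, 7.64, 8.23 and 5.64 in wild-type replicates 1 to 4 and 5.51 to 5.88 in the mutants. Wild-type replicate 4 lay among the mutants there and 2.36 below the other wild types, unlike its place for dpy-2. The log2 difference was -1.68 ± 0.50 (SE; limma, adjusted p = 0.104), and T14B4.5 fell by 2.27 without that array (adjusted p = 7.11e-05). With all 8 arrays the other neighbours had adjusted p from 0.111 to 0.769. Among them C31H2.14, whose annotated span overlaps dpy-8, differed by -0.85 (adjusted p = 0.111). With wild-type replicate 4 left out C31H2.14 fell by 1.12 (limma, adjusted p = 0.000869), in a fit that called 37.1% of all probe sets. There npax-2 (1.05), ceh-14 (1.66), glb-16 (0.66) and rpy-1 (1.03) also rose and R02D3.8 (-0.43) fell (adjusted p from 0.000837 to 0.0451). F53B1.9, C31H2.3 and pqbp-1.1 were not called there.

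**Figure D3:**
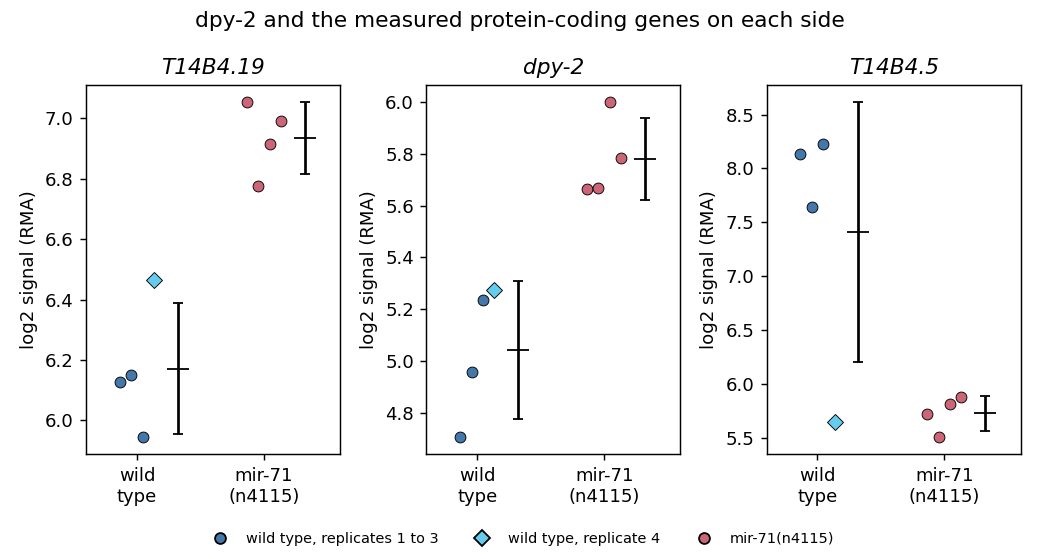
Log2 signal (vertical axes, scaled separately) of dpy-2 and of the measured protein-coding genes on either side of it, by array, with the mean ± SD of 4 arrays. Wild-type replicate 4, the diamond, lies with the wild types for dpy-2 (5.27) and between the groups for T14B4.19 (6.47), and lies among the mutants for T14B4.5 (5.64).

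The other cuticle collagens that set body shape include those of the struts, the rollers and the squat mutants. Of 14 measured, 0 were called (2 at an unadjusted p under 0.05, where 26.3% of all probe sets had one), with 12 higher in the mutants and a median log2 difference of 0.24. The lowest p was that of bli-1, a collagen of the struts that hold the adult cuticle layers together, at 0.79 ± 0.24 (SE; limma, adjusted p = 0.104). It read 4.16 to 4.88 in wild-type replicates 1 to 3, 5.36 in wild-type replicate 4 and 5.35 to 5.68 in the mutants. Without wild-type replicate 4, 4 of the 14 rose and 0 fell, where 19.3% of all probe sets rose and 17.8% fell.

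Collagen chains are hydroxylated and folded in the endoplasmic reticulum, trimmed by proteases and crosslinked by oxidases outside the cell. Of 12 enzymes and partners of these steps 0 were called, with 9 higher and a median of 0.20. At an unadjusted p under 0.05 there was 1, where 26.3% of all probe sets had one. The lowest p belonged to dpy-18, the catalytic subunit of a prolyl 4-hydroxylase, at 0.70 ± 0.25 (SE; limma, adjusted p = 0.136). dpy-18 read 8.76 to 9.20 in wild-type replicates 1 to 3, 9.98 in wild-type replicate 4 and 9.77 to 10.01 in the mutants. Without wild-type replicate 4, 6 of the 12 rose and 1 fell, against 19.3% and 17.8% of all probe sets.

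The transcription regulators of the epidermis and of the moulting cycle were higher in 11 of 11 cases, with a median of 0.75, but 0 passed the adjusted threshold. Over all genes 13209 of 25478 were higher. Before adjustment 8 regulators lay under 0.05, as did 26.3% of all probe sets. Those closest to the threshold were bed-3, a zinc-finger protein needed for moulting (0.77, adjusted p = 0.0736), blmp-1, which shapes cyclic cuticle gene expression (1.09, adjusted p = 0.0761), and hbl-1, a heterochronic factor (1.21, adjusted p = 0.0798). The nuclear receptors nhr-25 (1.12, adjusted p = 0.0917), nhr-23 (0.70, adjusted p = 0.109) and nhr-85 (0.52, adjusted p = 0.336), which act in the moulting programme, did not pass. Nor did grh-1, a Grainyhead factor of barrier epithelia (0.75, adjusted p = 0.0920), the GATA factor elt-1 (0.68, adjusted p = 0.106), myrf-1 (0.71, adjusted p = 0.127), the Period-like lin-42 (0.85, adjusted p = 0.240) or the GATA factor elt-3 (0.11, adjusted p = 0.533). elt-3 changed sign with the gene length trend removed (-0.10).

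For all 11 regulators wild-type replicate 4 was nearer to the mutant mean than to the mean of the other wild types. nhr-23, for example, read 9.30 to 9.72 in wild-type replicates 1 to 3, 10.39 in wild-type replicate 4 and 10.37 to 10.51 in the mutants. blmp-1 read 7.20 to 7.71, then 8.52, and 8.58 to 8.87 in the mutants. In wild-type replicate 4 the median deviation from the other wild types was 1.02 for this list and 0.21 for the furrow collagens. Without that array 10 of the 11 regulators rose and 0 fell, against 19.3% and 17.8% of all probe sets.

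**Figure D4:**
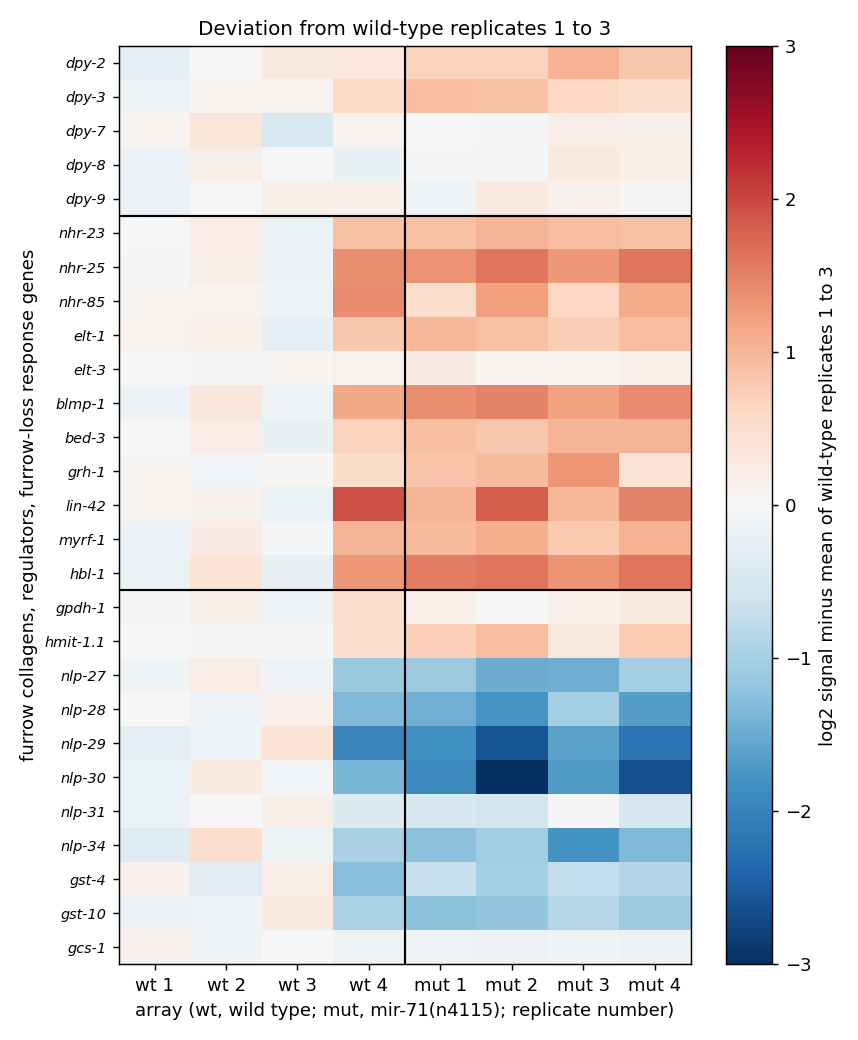
Deviation of each array's log2 signal from the mean of wild-type replicates 1 to 3 (colour), for the 5 furrow collagens, 11 regulators and 11 genes known to respond to furrow loss (rows, in that order), with arrays as columns. Wild-type replicate 4 takes the colour of the mutants in most regulator and nlp-29 cluster rows, while dpy-2 is 0.31 there and 0.70 to 1.04 in the mutants.

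The next list held genes of the moult itself and of the transient matrix laid down before the new cuticle. Of 20 measured, noah-2 and noah-1 rose, 0 fell and 18 were not called, against 0.645% of all probe sets that rose. 16 were higher and the median was 0.80. noah-2, an apical matrix protein, differed by 1.14 ± 0.23 (SE; limma, adjusted p = 0.0426) and its relative noah-1 by 0.92 ± 0.19 (adjusted p = 0.0493). Both calls ended with the replicate number as a block (adjusted p = 0.0584 and 0.0599), noah-1 also ended with quantile normalisation (adjusted p = 0.0515), and both ended without any single array other than wild-type replicate 4 (adjusted p up to 0.132 and 0.154). Without wild-type replicate 4, 12 of the 20 rose and 0 fell, against 19.3% and 17.8% of all probe sets.

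Genes known to be raised when furrows are lost were mostly lower in the mutants. Of 11 measured 1 fell, against 1.31% of all probe sets, 0 rose and 9 were lower, with a median of -0.84. The one that fell was nlp-30, an antimicrobial peptide gene of the epidermal nlp-29 cluster, which went from 5.77 ± 0.72 to 3.82 ± 0.60 (SD, n = 4), a log2 difference of -1.96 ± 0.39 (SE; limma, adjusted p = 0.0423). It read 5.92, 6.41, 6.03 and 4.74 in wild-type replicates 1 to 4 and 4.20, 3.14, 4.43 and 3.49 in the mutants. All mutants lay below all wild types (groups were apart in either direction for 11.2% of probe sets), with wild-type replicate 4 between the other wild types and the mutants. Its call ended without any single array other than wild-type replicate 4 (adjusted p up to 0.133).

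The other genes of that cluster had differences of -1.57 for nlp-29, -1.14 for nlp-28, -1.11 for nlp-34, -0.99 for nlp-27 and -0.28 for nlp-31 (limma, adjusted p from 0.0874 to 0.295). nlp-29, the usual reporter of epidermal damage, read 8.48 to 9.18 in wild-type replicates 1 to 3, 6.78 in wild-type replicate 4 and 6.18 to 7.15 in the mutants. The glutathione S-transferase gene gst-4, the usual reporter of the detoxification response, differed by -0.51 (adjusted p = 0.291). Its relative gst-10 differed by -0.84 (adjusted p = 0.100) and gcs-1, the rate-limiting enzyme of glutathione synthesis, by -0.13 (adjusted p = 0.448).

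The osmotic genes differed in the other direction or hardly at all. gpdh-1, a glycerol-producing enzyme and the usual osmotic reporter, went from 6.83 ± 0.27 to 6.87 ± 0.12 (SD, n = 4; log2 difference 0.03 ± 0.15 SE, limma, adjusted p = 0.908). hmit-1.1, a myo-inositol transporter gene, differed by 0.55 ± 0.18 (SE; adjusted p = 0.113). It read 4.58 to 4.64 in wild-type replicates 1 to 3, 5.12 in wild-type replicate 4 and 4.92 to 5.54 in the mutants. Without wild-type replicate 4, hmit-1.1 rose and 7 of the 11 fell, against 19.3% and 17.8% of all probe sets.

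**Figure D5:**
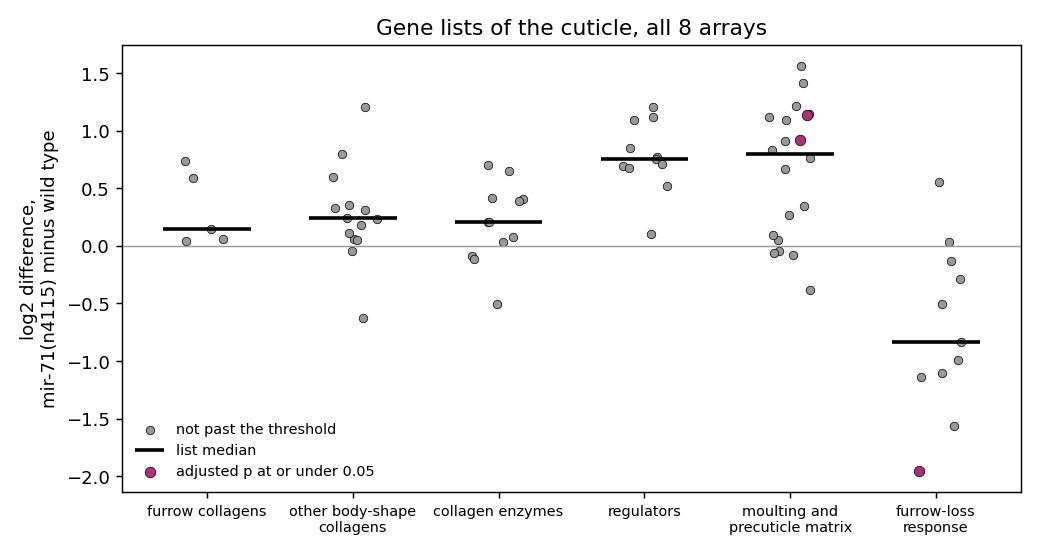
Log2 difference of each gene, mir-71(n4115) minus wild type (vertical axis), for the furrow collagens and 5 related gene lists, with the list medians as bars. Purple points passed an adjusted p of 0.05, which were noah-1, noah-2 and nlp-30. The medians are 0.15 for the furrow collagens, 0.75 for the regulators and -0.84 for the genes known to respond to furrow loss.

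Markers of the epidermis, the tissue that makes these collagens, read 5.04 or more on every array. 11 of 11 were higher in the mutants, 0 were called, and their summed linear signal was 7314 to 9193 in wild-type replicates 1 to 3, 12806 in wild-type replicate 4 and 11839 to 13593 in the mutants. nhr-23, nhr-25, elt-1 and elt-3 are also among the regulators above, so these lists are not independent. With the gene length trend removed the median of the epidermis markers went from 0.68 to 0.40, and vab-10 (-0.04) and elt-3 (-0.10) were below 0. With wild-type replicate 4 left out, 10 of the 11 epidermis markers rose and 0 fell, against 19.3% and 17.8% of all probe sets. When the length trend was removed as well, 6 of them rose and 0 fell, where 16.5% of probe sets rose. The sum for the 5 furrow collagens was 124 to 150 in wild-type replicates 1 to 3, 151 in wild-type replicate 4 and 169 to 193 in the mutants. Most of that gap comes from dpy-2 and dpy-3 (log2 differences 0.74 and 0.59), since dpy-7, dpy-8 and dpy-9 differed by at most 0.15. The part of a larger epidermal share in the difference of dpy-2 or dpy-3 was not tested. The adult epidermis collagens col-7, col-19 and col-62 were not called, with a summed signal of 2370 to 2693 in wild-type replicates 1 to 3, 3482 in wild-type replicate 4 and 2800 to 3489 in the mutants. With wild-type replicate 4 left out, 1 of these 3 rose and 0 fell, against the same 19.3% and 17.8%.

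Day 1 adults carry embryos, whose epidermis also makes furrow collagens. Of 10 zygotic embryo markers cnd-1, a neuronal transcription factor, rose and 0 fell, against 0.645% of all probe sets that rose. Their summed signal overlapped, at 5263 to 5611 in the wild types and 5394 to 5922 in the mutants. pal-1, by far the brightest of them with a mean of 12.03 in each group, weighs most in that sum. Whether the pal-1 RNA came from embryos or from the germline of the adults was not tested, so the sum is not taken as a measure of embryos. Of the 10, 6 were higher in the mutants and 4 lower. Without wild-type replicate 4, 3 of them rose and 2 fell, where 19.3% of all probe sets rose and 17.8% fell. Oocyte and early embryo markers had 0 of 10 called, and their sums were 29342 to 34652 in wild-type replicates 1 to 3, 39572 in wild-type replicate 4 and 34792 to 39505 in the mutants. Of 10 sperm markers 5 fell, against 1.31% of all probe sets, with sums of 986 to 1209 in the wild types and 390 to 538 in the mutants. With wild-type replicate 4 left out, 3 of the 10 oocyte and early embryo markers rose and 0 fell. In that fit 7 of the 10 sperm markers fell and 0 rose, where 19.3% of all probe sets rose and 17.8% fell. With all 8 arrays, markers of 3 other tissues had 0 called, and for each the sums of wild-type replicates 1 to 3 lay apart from those of the mutants. Body wall muscle (6 markers) summed to 4580 to 4648 in wild-type replicates 1 to 3, 8150 in wild-type replicate 4 and 5719 to 7959 in the mutants. The median log2 difference of the muscle markers was 0.33, and 0.03 with the gene length trend removed. Without wild-type replicate 4, 4 of these 6 rose, against 19.3% of all probe sets. With the length trend removed as well 0 rose, against 16.5%. Neurons (7 markers) summed to 5719 to 6066, 7618 and 7305 to 7564 in the same order of arrays. With wild-type replicate 4 left out, 4 of these 7 rose and 0 fell, against 19.3% and 17.8% of all probe sets. The intestine sum (8 markers) ran the other way, at 19994 to 21903, 17559 and 18350 to 18714. vit-2, vit-5 and vit-6, the brightest of these markers, weigh most in that sum. The intestine markers themselves were split, with 3 higher in the mutants, among them elt-2 (0.62), and 5 lower. Without wild-type replicate 4, 3 of these 8 rose and 3 fell, against 19.3% and 17.8% of all probe sets. The part of these tissues in the furrow collagen values was not tested. Whether the furrow collagen signals came from the epidermis of adults or of embryos was not tested.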

How the data were processed

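Per the submitters' processing notes, the authors used Partek 6.6 and RMA, the second a method of background correction, quantile normalisation and summary by probe set. No settings are stated. The deposited values are log2 signals for 29317 probe sets on 8 arrays, and the log2 scale was read from their range. The test used the 26192 probe sets that the platform annotation pairs with genes, of which 646 have several and were given no name. Symbols were updated by Entrez identifier to RefSeq WBcel235, where 25495 matched. A gene was read from its brightest probe set over all arrays.

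Groups came from the sample labels. Differences are mutant minus wild type, from limma 3.58.1 under R 4.3.3 (linear model per probe set with eBayes moderation, 2-sided, no covariate, Benjamini-Hochberg over all tested probe sets, threshold 0.05), and the code was tested on simulated data. The precision is limited by 4 arrays per group. The members, gene lists, tests and alternatives were chosen with earlier results of these data known. Named genes were the members, all measured regulators and furrow-loss response genes, up to 2 risen and 2 fallen members of each other list or else the one with the lowest p, and the nearest profiles. Length trends were taken out by lowess (span 0.3) on annotated gene span.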

Additional observations from a re-analysis of the deposited data

Results flagged for a closer look

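Among 92 groups of 4 arrays (46 named genes in 2 groups), 6 held an array whose gap to the nearest other array, over the group's range, passed Dixon's critical value, and chance flags about 1 group in 20. No furrow collagen was among them. lin-42 read 6.93 in wild-type replicate 4, against 4.79 to 5.12 in the other wild types. hmit-1.1 read 5.12 in wild-type replicate 4, against 4.58 to 4.64. F26A10.8, the nearest profile to dpy-3, read 3.56 in wild-type replicate 4, against 2.84 to 2.95. nlp-31 read 5.11 in mutant replicate 3, against 4.61 to 4.68 in the other mutants. eif-3.K read 11.98 in mutant replicate 3, against 11.86 to 11.88. F46F3.9, the nearest profile to dpy-2, read 5.69 in mutant replicate 3, against 5.26 to 5.30, and dpy-2 was also highest there.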

How the results depend on the processing

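dpy-2 passed the threshold with quantile normalisation (0.74), array medians subtracted (0.75), the dimmest 40% of probe sets left out (0.74), the length trend removed (0.86) and the length trend removed with wild-type replicate 4 left out (0.98), and 1, 1, 1, 1 and 2 furrow collagens were then called. The added one in the last setting was dpy-3 (1.00). Removing the length trend alone left dpy-3 uncalled (adjusted p = 0.0935). Leaving out 1 array at a time, dpy-2 ranged from 0.62 to 0.81, dpy-3 from 0.49 to 0.73 and dpy-7 from -0.11 to 0.17. In the same fits dpy-8 ranged from 0.08 to 0.23 and dpy-9 from -0.033 to 0.10. dpy-9 was below 0 without wild-type replicate 1 and without mutant replicate 2. The members called ranged from 0 to 2, with 2 only when wild-type replicate 4 was left out, and the probe sets called over the whole table from 51 (without wild-type replicate 2) to 9726 (without wild-type replicate 4). The table held 8643 calls with the length trend removed and wild-type replicate 4 left out, and 34 at an adjusted p of 0.01, where 0 moulting genes and 0 furrow-loss response genes passed. Called genes of the lists ranged, leaving out 1 array, from 0 to 4 for other body-shape collagens, 0 to 7 for collagen enzymes, 0 to 10 for regulators, 0 to 12 for moulting genes and 0 to 8 for furrow-loss response genes, highest each time without wild-type replicate 4. With the length trend removed as well these were 8, 6, 9, 14 and 7. Moulting genes called were 1 with quantile normalisation. elt-3 reversed with the length trend removed (-0.10), also without wild-type replicate 4 (-0.16), and gpdh-1 ranged from -0.0461 (without wild-type replicate 3) to 0.15 leaving out 1 array.

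With the replicate number as a block, dpy-2 differed by 0.74 (adjusted p = 0.0542), 0 furrow collagens and 0 moulting genes were called, and 380 probe sets were called in place of 511. Deviations of same-numbered arrays correlated at -0.11 to 0.37, and 4 of 8 arrays correlated best with their own number. These values do not settle whether the numbers pair samples. The labels state no pairing, and the main fit used none. The median of probe sets per gene was not run, since each member had a single probe set. dpy-9 lay below the level of the filter on dim probe sets (4.45) and has no value under it.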
